A study of Mus musculus with 12 samples.

Results

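Gonadal white adipose tissue (WAT) was examined in mice that lacked the glucocorticoid receptor (GR, encoded by Nr3c1) in skeletal muscle, to ask which differences from control mice recurred with and without excess corticosterone (CORT). Of the 12 libraries in the series, 4 came from gonadal WAT and are described here. Male C57BL/6J mice were GRf/f, carrying floxed Nr3c1 alleles and no Cre, or GRmKO, carrying the same floxed alleles with an Acta1-Cre transgene that is active in myofibers. From 8 weeks of age they drank 1% ethanol in water for 4 weeks, either alone (vehicle) or with CORT at 100 µg/mL. The 4 groups were therefore GRf/f vehicle, GRmKO vehicle, GRf/f CORT and GRmKO CORT. RNA of 3 mice was pooled into the 1 library of each group, so no spread between mice could be measured, and the effect of Cre itself and that of receptor loss cannot be told apart. Of 22252 entries, 14218 were above 0 in all 4 libraries and were compared. Values are CPM, counts divided by the total of their library and brought to a common scale, and each genotype difference is log2 of GRmKO over GRf/f after 0.5 CPM was added to both. Intervals are exact 95% limits of the ratio of the unmodified counts, on the log2 scale, and cover counting error only.

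Glucocorticoids act on adipose tissue directly through GR in adipocytes, where they regulate lipid storage and release, and indirectly through hormones and substrates from other organs. Skeletal muscle is a main site of glucocorticoid action on protein breakdown, and the amino acids it releases reach other tissues. In GRmKO mice the fat itself keeps its receptor, so a difference seen in fat is one at a distance from the site of deletion. Gonadal fat also holds macrophages, lymphocytes, endothelium, fibroblastic progenitors and a mesothelial covering, all of which contribute to bulk RNA.

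The receptor gene was lower in the muscle libraries labelled GRmKO, and not in GRmKO fat by a comparable amount. In gastrocnemius the log2 difference of Nr3c1 was -1.27 under vehicle and -1.34 under CORT. In WAT, Nr3c1 stood at 156 CPM in GRf/f vehicle, 158 in GRmKO vehicle, 136 in GRf/f CORT and 111 in GRmKO CORT, log2 differences of 0.02 and -0.29. The WAT libraries held 19752511 to 20198110 counts. The 15 adipocyte markers summed to 80311 and 83479 CPM in GRf/f and GRmKO under vehicle and to 61396 and 67815 CPM under CORT, whereas the 18 markers of epididymis, testis and seminal vesicle summed to at most 3.46 CPM in any library. The 11 skeletal muscle markers other than Acta1 summed to 4.16 to 14.7 CPM. Acta1, skeletal alpha-actin, was at 37.4 CPM in GRf/f vehicle, 199 in GRmKO vehicle, 113 in GRf/f CORT and 103 in GRmKO CORT.

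The genotype differences under vehicle and under CORT shared few genes. Under vehicle, 152 genes were at least 2-fold higher in GRmKO (1.07% of genes tested) and 164 at least 2-fold lower (1.15%). Under CORT, 203 were higher (1.43%) and 169 lower (1.19%). Past 2-fold under both, 9 genes were higher (0.0633%) and 10 lower (0.0703%). More genes went opposite ways, with 14 higher under vehicle and lower under CORT (0.0985%) and 19 the reverse (0.134%). The 9 recurring higher genes were 5.92% of the genes higher under vehicle and 4.43% of those higher under CORT. The 10 recurring lower genes were 6.10% and 5.92% of the matching lists. Both shares lay above the background of 1.07% to 1.43%, yet the shares that went the opposite way were larger still, at 9.21% of the genes higher under vehicle and 11.6% of those lower. A gene past 2-fold in one comparison was thus more often past 2-fold in the other in either direction, not particularly in the same one.

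Over all tested genes the changes under the 2 treatments were weakly and inversely related, with Pearson's r of -0.09 and a Spearman rank correlation of -0.11 across 14218 genes, which are not independent replicates. The sign was the same for 45.3% of genes. Among the 3150 genes with a mean of at least 50 CPM, the most precisely counted ones, the Spearman rank correlation was -0.23 and 40.4% had the same sign. The 2 comparisons share no library.

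**Figure D1:**
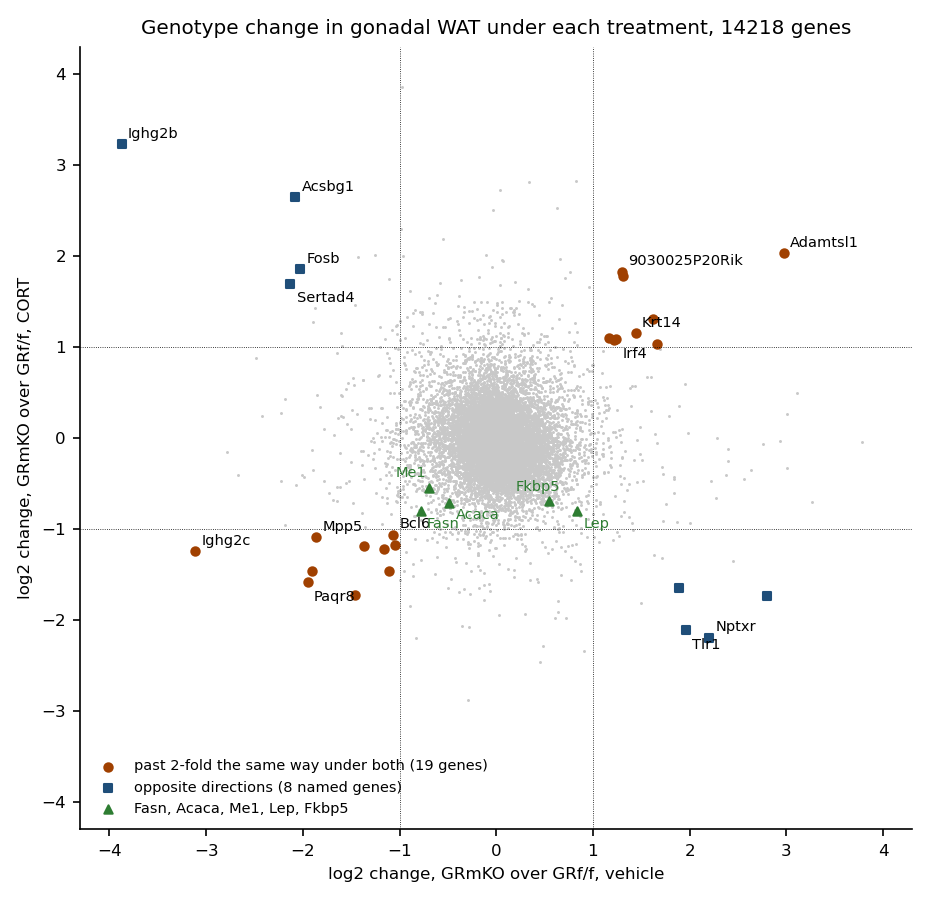
Each point is 1 of 14218 genes, with the log2 difference of GRmKO over GRf/f under vehicle on the horizontal axis and under CORT on the vertical axis; dotted lines mark 2-fold. The 19 genes past 2-fold the same way under both (brown circles) lie in the upper right and lower left corners, the 8 named opposite genes (blue squares) in the other 2 corners, and the cloud has no rising slope.

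The clearest recurring difference by level and precision was a lower Bcl6, a transcriptional repressor that in fat and liver restrains target genes of growth hormone and STAT5 signalling. Bcl6 (chr16:23965052-23988852, mm10, minus strand) was at 63.5 CPM in GRf/f vehicle and 30.0 in GRmKO vehicle, and at 98.8 in GRf/f CORT and 47.0 in GRmKO CORT. The log2 differences were -1.07 (-1.22 to -0.94) and -1.06 (-1.18 to -0.96). Both GRmKO libraries were therefore below both GRf/f libraries, and the gene has 1 annotated protein-coding transcript, so its entry does not depend on which coding isoform was retained.

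The other 9 genes lower under both were expressed at lower levels. Mpp5, a scaffold protein of cell polarity, was at 15.3 and 3.84 CPM in GRf/f and GRmKO under vehicle and at 23.7 and 10.8 CPM under CORT. Itga3, an integrin subunit that binds laminin, was at 10.8 and 4.97 CPM and at 14.5 and 6.11 CPM. Gemin4, a component of the SMN complex of snRNP assembly and the only other member of these 10 with 1 protein-coding transcript, was at 9.48 and 3.95 CPM and at 7.18 and 2.80 CPM. In these 3 genes both GRmKO libraries again lay below both GRf/f libraries. Endov, an endonuclease acting on inosine in RNA, was at 10.6 and 3.52 CPM under vehicle and 4.60 and 1.04 under CORT. Pcgf1, a Polycomb subunit, was at 5.89 and 1.2 CPM and at 4.19 and 1.21 CPM. Paqr8, a membrane progestin receptor, was at 2.47 and 0.267 CPM and at 1.86 and 0.286 CPM. Ror2, a receptor for Wnt5a, was at 1.75 and 0.545 CPM and at 2.31 and 0.519 CPM. For Paqr8, Pcgf1 and Endov the counting intervals lay wholly beyond 2-fold in both comparisons. The immunoglobulin constant gene Ighg2c also met this, at 10.8 and 0.810 CPM under vehicle, but its CORT values of 0.803 and 0.0495 CPM rest on few counts, the last of them below the floor of 3 counts. Its neighbour in function Ighg2b went opposite ways. The predicted gene Gm45234 completed the 10, at 2.06 and 0.495 CPM and at 16.2 and 6.82 CPM. Just short of 2-fold under CORT were Spata7, with log2 differences of -1.36 and -0.97, and Rbmx, an RNA-binding protein of splicing, with -2.19 and -0.95.

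Among the 9 genes higher under both, the largest difference was that of Adamtsl1, a secreted matrix protein related to the ADAMTS proteases. It was at 0.717 CPM in GRf/f vehicle and 9.06 in GRmKO vehicle, and at 1.51 in GRf/f CORT and 7.73 in GRmKO CORT. Its log2 differences were 2.98 (2.91 to 4.59) and 2.03 (1.79 to 2.97). The gene 9030025P20Rik, with 1 protein-coding transcript, was at 5.02 and 13.1 CPM under vehicle and at 2.85 and 11.4 CPM under CORT. In both of these genes every GRmKO library exceeded every GRf/f library, and the counting intervals lay beyond 2-fold. Irf4, a transcription factor of lymphocytes and of the fasting response of adipocytes, was at 9.54 and 23.2 CPM under vehicle and at 4.42 and 9.97 CPM under CORT, differences of 1.24 (1.04 to 1.54) and 1.09 (0.80 to 1.55). Krt14, a keratin of basal epithelium, was at 1.60 and 5.21 CPM and at 2.86 and 6.98 CPM. Fgf18, a secreted growth factor, was at 0.306 and 1.97 CPM and at 1.38 and 4.16 CPM. Both genes were again higher in GRmKO than in either GRf/f library, as Fgf18 stood at 1.97 CPM in its lower GRmKO library against 1.38 in its higher GRf/f library. Mup20, a major urinary protein made mainly by the liver, was at 0.852 and 3.78 CPM and at 4.11 and 8.94 CPM, and reads of the many near-identical Mup genes may be split between entries. Of 8 hepatocyte markers, Mup20 included, 6 were higher in both comparisons (22.7% of all genes) and 4 were past 2-fold under CORT (1.43% of all genes), with Alb (albumin) at 44.8 and 54.2 CPM and at 46.8 and 84.8 CPM, and the part of liver-type RNA in the Mup20 values was not tested. Fcamr, an Fc receptor for IgA and IgM, Pafah1b3, a subunit of platelet-activating factor acetylhydrolase, and Gm44973 were all at or below 2.19 CPM.

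Next in rank was Cish, an inhibitor of cytokine signalling that is induced by STAT5, which was at 7.68 and 25.9 CPM in GRf/f and GRmKO under vehicle and at 1.43 and 3.31 CPM under CORT. The differences were 1.69 (1.49 to 2.03) and 0.98 (0.54 to 1.87), just short of 2-fold in the second. Other genes of this pathway, named after the values of Cish and Bcl6 were seen, did not share one pattern. Socs2, a second STAT5-induced inhibitor, differed by 0.11 and 0.64, Igf1 by -0.25 and 0.53, the growth hormone receptor Ghr by -0.11 and -0.05, Stat5a by -0.10 and 0.77 and Stat5b by 0.02 and 0.13. The kinase Jak2 differed by 0.64 and -1.91.

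**Figure D2:**
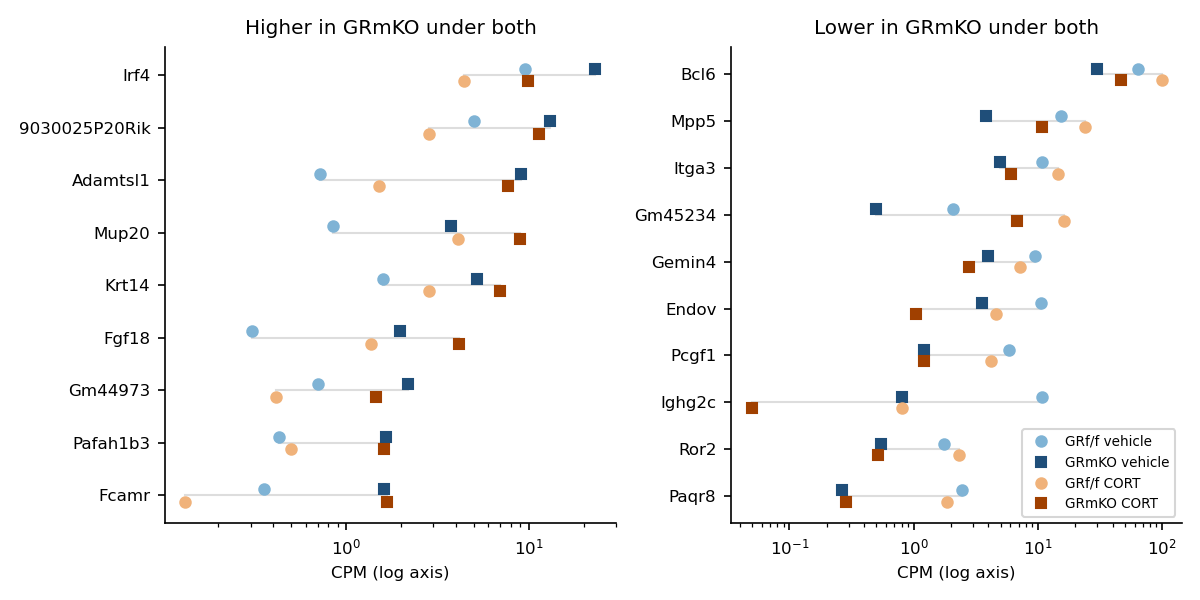
CPM on a log axis in each of the 4 WAT libraries for the 9 genes higher (left) and the 10 genes lower (right) in GRmKO by at least 2-fold under both treatments; circles are GRf/f, squares GRmKO, blue vehicle and orange CORT. Bcl6 stands at the highest level of the 19, at 30.0 to 98.8 CPM, and the highest value of any other is 23.7 CPM, for Mpp5 in GRf/f CORT.

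The same question was asked in a single model. An additive fit of genotype and treatment over the 4 libraries (edgeR quasi-likelihood, 1 residual degree of freedom, library totals as sizes) called 0 genes, 0% of those tested, at an adjusted p below 0.05. At an unadjusted p below 0.05 there were 448 genes (3.15%), and the smallest adjusted p was 0.577, for Ighg2c. For Bcl6 the fitted difference was -1.08 with an adjusted p of 0.686. That answer depended on small scaling factors. With TMM factors, which lay between 0.955 and 1.05, edgeR called 7 genes, namely Adamtsl1 as higher and Akap13, Baz2a, Bcl6, Ighg2c, Mpp5 and Samd4b as lower. With median-of-ratios factors it called 5 of these, without Akap13 and Mpp5, and DESeq2 called the same 5. Over only the 4221 genes with 1 protein-coding transcript, a choice made after seeing the data, edgeR called Bcl6 (adjusted p = 0.00214), 9030025P20Rik, Inmt and Gm49450. Bcl6 was thus called in 4 of the 6 alternatives and 0 genes were called in the other 2.

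The 5 genes that these alternatives added to the recurring ones were at moderate levels. Baz2a, a chromatin remodelling subunit, was at 65.0 and 34.9 CPM under vehicle and at 61.5 and 16.7 CPM under CORT. Samd4b, a translational regulator, was at 66.0 and 36.1 CPM and at 53.2 and 18.3 CPM. Akap13, an anchoring protein for protein kinase A, was at 64.0 and 20.1 CPM and at 110 and 67.8 CPM. Inmt, an indolethylamine methyltransferase, was higher, at 61.7 and 111 CPM and at 10.5 and 22.0 CPM. Gm49450, a predicted gene, was at 77.4 and 37.6 CPM and at 171 and 111 CPM. In Baz2a and Samd4b both GRmKO libraries lay below both GRf/f libraries, while in Akap13, Inmt and Gm49450 the genotypes overlapped once the treatments were pooled.

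Promoters are shown where several genes moved together or 1 gene carried the recurring difference. RefSeq (GRCm38.p6) gives Bcl6 a pair of starts, and the 250 bases before each are printed 5′ to 3′ on the minus strand. Capitals mark TTCNNNGAA, the spaced palindrome bound by STAT factors, and CACGTG, the E-box bound among others by clock factors, each searched on both strands. The upstream start, at chr16:23988853-23989102, and the downstream start, at chr16:23981284-23981533, read as follows.
Bcl6 upstream start: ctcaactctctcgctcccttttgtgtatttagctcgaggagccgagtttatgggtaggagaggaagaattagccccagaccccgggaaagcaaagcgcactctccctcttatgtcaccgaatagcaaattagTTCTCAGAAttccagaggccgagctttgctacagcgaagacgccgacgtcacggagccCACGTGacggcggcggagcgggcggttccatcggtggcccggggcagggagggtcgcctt
Bcl6 downstream start: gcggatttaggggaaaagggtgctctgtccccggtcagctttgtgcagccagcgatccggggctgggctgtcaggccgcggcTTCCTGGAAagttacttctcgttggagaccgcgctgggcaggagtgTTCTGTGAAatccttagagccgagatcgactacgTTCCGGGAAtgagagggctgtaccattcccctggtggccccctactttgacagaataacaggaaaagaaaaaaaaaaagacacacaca
The downstream window holds 3 matches to TTCNNNGAA, a number reached in 9 of 32851 windows (0.0274%), and the upstream window holds 1 match with 1 CACGTG. At least 1 TTCNNNGAA lies in 7.02% of all windows and CACGTG in 6.02%. Of the 19 recurring genes 10 matched a RefSeq promoter, and TTCNNNGAA was found in 2 of them, Bcl6 and Paqr8. These matches are letters in a window and do not show that a factor was bound.

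Of 17 genes of fatty acid synthesis, 8, Fasn and Acaca among them, were lower in GRmKO WAT under both treatments, 0 of them by 2-fold in both. The list holds 17 genes, all tested, and its median log2 difference was -0.53 under vehicle and -0.30 under CORT, against medians of 0.02 and -0.03 over all genes. Of the 17, 8 were lower in both comparisons, 2 higher in both, 3 higher then lower and 4 lower then higher, whereas 22.6% of all genes were lower in both. Under vehicle 2 were past 2-fold, both lower, against 1.15% of all genes, and under CORT 0 were. The additive edgeR fit called 0 of the 17.

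Fasn, fatty acid synthase, was at 3627 CPM in GRf/f vehicle and 2111 in GRmKO vehicle, and at 6469 in GRf/f CORT and 3698 in GRmKO CORT. Its differences of -0.78 (-0.80 to -0.76) and -0.81 (-0.82 to -0.79) were nearly equal. Acaca, acetyl-CoA carboxylase, was at 955 and 682 CPM under vehicle and at 1385 and 846 CPM under CORT, differences of -0.48 and -0.71. Me1, malic enzyme, which supplies NADPH, was at 1169.6 and 720.2 CPM and at 1808 and 1237 CPM. These 3 were higher with CORT in both genotypes and lower in GRmKO at each treatment, so GRmKO CORT came near the GRf/f vehicle level. Scd2, a stearoyl-CoA desaturase, was at 221 and 145 CPM and at 762 and 587 CPM, and Pnpla3, a lipid droplet protein regulated with lipogenesis, was at 177 and 114 CPM and at 326 and 243 CPM. Elovl6, the fatty acid elongase, differed by -1.39 and -0.30, Acss2, which makes acetyl-CoA from acetate, by -1.07 and -0.21, and the citrate carrier Slc25a1 by -0.76 and -0.29. For these last 3 most of the difference was under vehicle.

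Not every member followed. Scd1, the most abundant of them, was at 33087 and 25998 CPM under vehicle but at 27959 and 34014 CPM under CORT, and Acly, ATP-citrate lyase, differed by -0.53 and 0.10. The transcription factor Srebf1 was higher in GRmKO, by 0.30 and 0.74, at 219 and 269 CPM and at 52.2 and 87.4 CPM, and Mlxipl (ChREBP) differed by 0.12 and -0.48. The summed level of the list, which Scd1 dominates, was 42301 and 32581 CPM under vehicle and 42987 and 44234 CPM under CORT. Beside these values the 15 adipocyte markers had medians of 0.02 under vehicle and 0.09 under CORT and 0 past 2-fold in either, but their members ranged from -0.16 to 0.84 and from -0.81 to 0.70, with Lep at both 0.84 and -0.81. In bulk RNA, fewer cells of a type and less RNA per cell cannot be told apart.

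**Figure D3:**
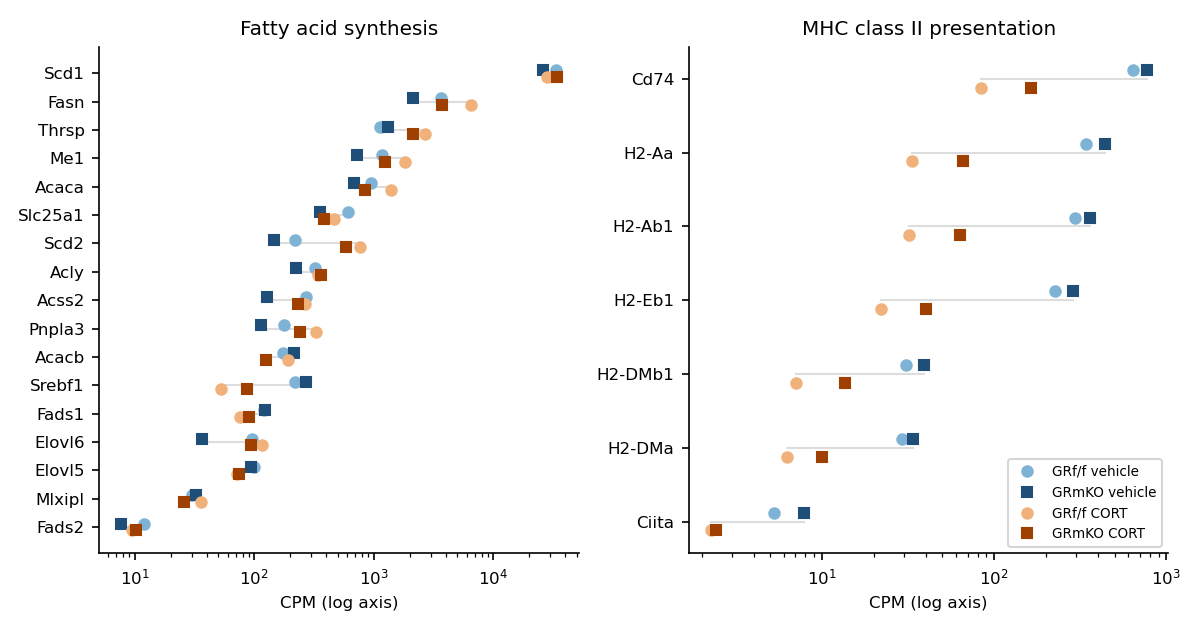
CPM on a log axis in the 4 WAT libraries for the 17 genes of fatty acid synthesis (left) and the 7 of MHC class II presentation (right); circles are GRf/f, squares GRmKO, blue vehicle and orange CORT. Fasn, Me1 and Acaca have the square to the left of the circle in both colours, and all 7 MHC class II genes have it to the right.

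The Fasn promoter (chr11:120824548-120824797, minus strand, 250 bases before the RefSeq start) is shown with CCAAT, the box bound by NF-Y, in capitals, where ATTGG is the same box on the other strand and a pair of the boxes overlap.
Fasn: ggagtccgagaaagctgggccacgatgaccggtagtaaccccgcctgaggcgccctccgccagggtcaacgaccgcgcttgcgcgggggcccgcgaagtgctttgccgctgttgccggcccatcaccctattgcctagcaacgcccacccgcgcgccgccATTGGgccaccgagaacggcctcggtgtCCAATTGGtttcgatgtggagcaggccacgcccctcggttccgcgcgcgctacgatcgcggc
It holds 3 matches. Among the 14 genes of fatty acid synthesis with a RefSeq promoter, 10 held CCAAT (71.4%), against 39.9% of the 11128 tested genes with one. CACGTG was in 3 of the 14 (21.4%), against 9.41% of tested genes.

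Of 35 lists, 4 had medians that departed from those of all genes by at least 0.25 in the same direction under both treatments, namely fatty acid synthesis, MHC class II presentation, B and plasma cell markers and mesothelial markers. MHC class II presentation had the largest positive medians of these. All 7 members were higher in GRmKO under both treatments, with medians of 0.35 under vehicle and 0.88 under CORT and 0 past 2-fold, whereas 22.7% of all genes were higher in both. H2-Aa, an alpha chain, was at 342 CPM in GRf/f vehicle and 439 in GRmKO vehicle, and at 33.4 in GRf/f CORT and 66.1 in GRmKO CORT. The invariant chain Cd74 was at 641 and 767 CPM and at 83.6 and 163 CPM. Ciita, the transactivator of the class II genes, was at 5.25 and 7.87 CPM under vehicle but at 2.25 and 2.42 CPM under CORT. The level was several-fold lower in both CORT libraries than in both vehicle libraries, so the larger log2 difference under CORT sits on a low base.

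Markers of B and plasma cells also had positive medians, 0.29 and 0.32, with 4 of 9 tested members higher in both (22.7% of all genes). Of the rest, 1 was lower in both, 2 were higher then lower and 2 lower then higher. The summed level of the list, which Ighm dominates, was higher in GRmKO under vehicle but lower under CORT, at 891.2 and 698.0 CPM. Ighm, the IgM heavy chain, was at 314.7 and 421.9 CPM under vehicle and at 873.3 and 671.7 CPM under CORT. Ms4a1 (CD20) was at 1.85 and 3.65 CPM and at 0.1005 and 0.940 CPM, and Cd79a, part of the B cell receptor, was at 4.81 and 7.19 CPM and at 0.552 and 1.49 CPM. The CORT values of both genes rest on few counts, and that of Ms4a1 in GRf/f CORT is below the floor of 3 counts. Jchain, which joins polymeric antibodies, was lower in both, by -0.22 and -0.40. Macrophage markers did not have positive medians under both treatments, with medians of 0.21 and -0.18 and 0 of 16 past 2-fold in either comparison. Whether the number of antigen-presenting cells bears on the class II values was not tested.

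Mesothelial markers had medians of 0.29 and 0.25, and 7 of 10 were higher in both, against 22.7% of all genes. Upk3b, a uroplakin of mesothelium, was at 155 and 177 CPM and at 178 and 225 CPM, and Krt19 at 31.6 and 34.7 CPM and at 37.9 and 49.7 CPM. The simple-epithelium keratin Krt8 differed by -0.10 and 0.90. The recurring gene Krt14 was higher in both comparisons, as Krt19 was and Krt8 was not, and whether the share of mesothelium in the dissected pads bears on it was not tested.

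Cell proliferation genes had medians of -0.46 and -0.26. Of the 13, 9 were lower in both, against 22.6% of all genes, 4 went opposite ways, 0 were past 2-fold in either comparison and edgeR called 0. Relative to all genes the CORT median was -0.23, short of the 0.25 asked above. Mki67, the Ki-67 antigen, was at 11.7 and 6.68 CPM and at 21.2 and 14.6 CPM, and Top2a, topoisomerase II alpha, at 6.92 and 4.15 CPM and at 11.7 and 6.43 CPM. In both genes the vehicle library of each genotype was below the CORT library, and GRmKO was below GRf/f at each treatment. Of 22 extracellular matrix genes 14 were lower in both, against the same background, but the medians were only -0.17 and -0.16. The basement membrane collagens Col4a1, at 1184 and 949 CPM and at 2549 and 2003 CPM, and Col4a2, at 799 and 618 CPM and at 1961 and 1450.5 CPM, were among them, as was Col5a1, with differences of -0.30 and -0.57. Cholesterol synthesis had medians of -0.16 under both treatments, with 8 of 16 lower in both, against 22.6% of all genes. Only 1 of the 16 was below -0.25 in both, against 4.16% of all genes. The largest difference under vehicle was that of Nsdhl, at -0.78 against -0.13 under CORT.

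**Figure D4:**
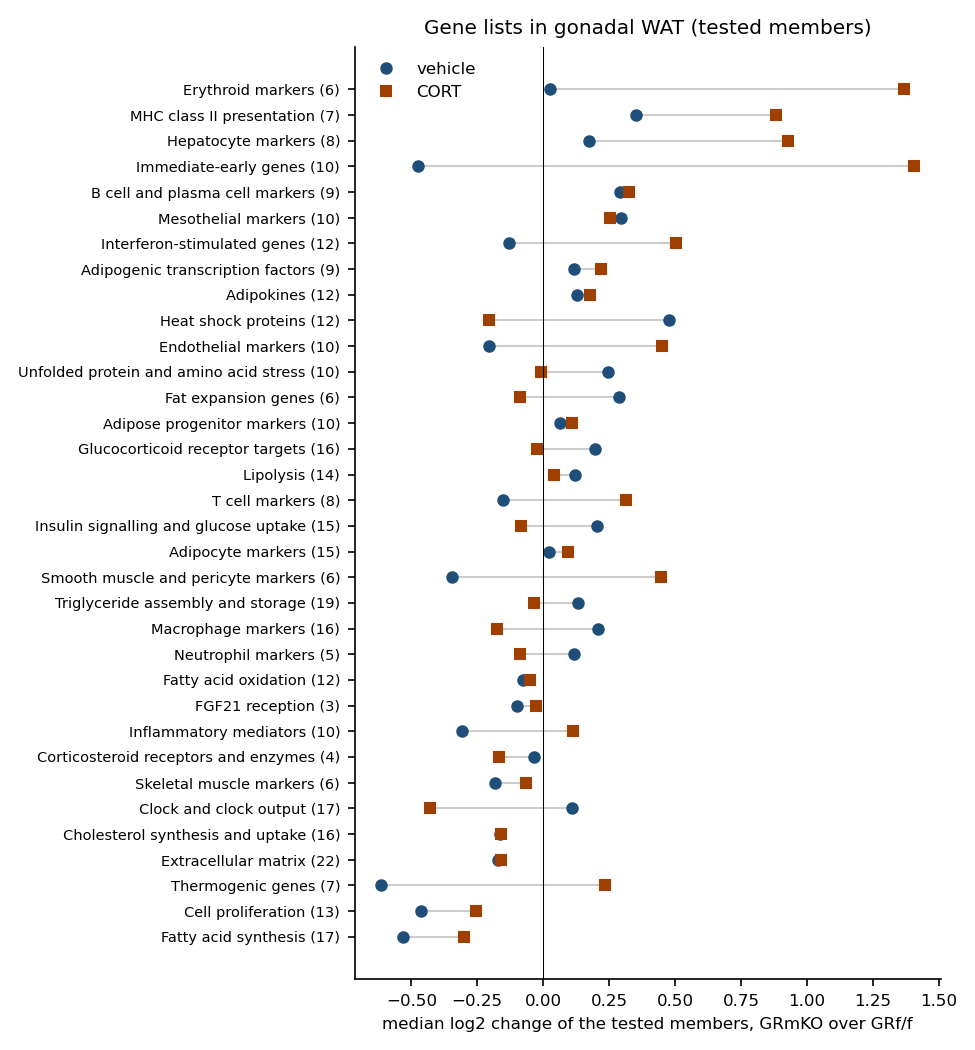
Median log2 difference of GRmKO over GRf/f for each gene list with at least 3 tested members (number in brackets), under vehicle (blue circles) and CORT (brown squares). Fatty acid synthesis and cell proliferation lie left of 0 under both treatments, and MHC class II, B cell and mesothelial markers right of 0 under both, while erythroid markers and immediate-early genes are the most widely separated.

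Immediate-early genes, which switch on within minutes of a stimulus, went opposite ways. All 10 were lower in GRmKO under vehicle and higher under CORT, against 22.8% of all genes, with medians of -0.48 and 1.41. Under vehicle 1 was past 2-fold and lower, and under CORT 8 of the 10 were past 2-fold and higher, against 1.43% of all genes. Fos was at 63.3 CPM in GRf/f vehicle, 31.6 in GRmKO vehicle, 24.8 in GRf/f CORT and 124 in GRmKO CORT. Junb was at 65.4, 41.4, 31.3 and 81.7 CPM in the same order. The GRf/f CORT library was the lowest of the 4 for both genes and GRmKO CORT the highest.

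Under CORT these genes moved together with markers of blood and vessels. The 6 erythroid markers summed to 4376 and 4443 CPM in GRf/f and GRmKO under vehicle but to 2156 and 5675 CPM under CORT. All 6 were past 2-fold and higher under CORT, against 1.43% of all genes, and 0 were under vehicle. Hbb-bs, a beta-globin, was at 1515 and 1582 CPM and at 749 and 2018 CPM. The 10 endothelial markers summed to 927 and 853 CPM and to 355 and 484 CPM, with medians of -0.20 and 0.45, and smooth muscle and pericyte markers had medians of -0.34 and 0.45. Interferon-stimulated genes had medians of -0.13 and 0.50, with 0 of 12 past 2-fold. The part of blood content, vessels or the handling of the pads in the CORT values of the immediate-early genes and of the class II genes was not tested.

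The windows before the Fos start (chr12:85473640-85473889, plus strand) and the Junb start (chr8:84978749-84978998, minus strand) are given because both genes changed direction with treatment, with TGACG, the core of the site bound by CREB and ATF proteins, in capitals.
Fos: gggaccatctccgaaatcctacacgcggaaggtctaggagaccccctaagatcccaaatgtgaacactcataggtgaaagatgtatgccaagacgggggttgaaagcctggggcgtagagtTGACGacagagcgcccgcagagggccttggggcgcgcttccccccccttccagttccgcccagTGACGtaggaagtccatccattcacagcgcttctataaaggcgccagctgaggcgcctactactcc
Junb: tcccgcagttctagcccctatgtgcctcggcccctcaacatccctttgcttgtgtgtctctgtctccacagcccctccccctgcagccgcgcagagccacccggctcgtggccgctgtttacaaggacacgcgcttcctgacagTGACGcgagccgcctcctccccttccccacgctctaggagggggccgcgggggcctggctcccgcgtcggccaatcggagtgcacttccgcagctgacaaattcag
Fos holds 2 matches and Junb 1. TGACG was in 6 of the 8 immediate-early genes with a RefSeq promoter, against 28.2% of tested genes with one.

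**Figure D5:**
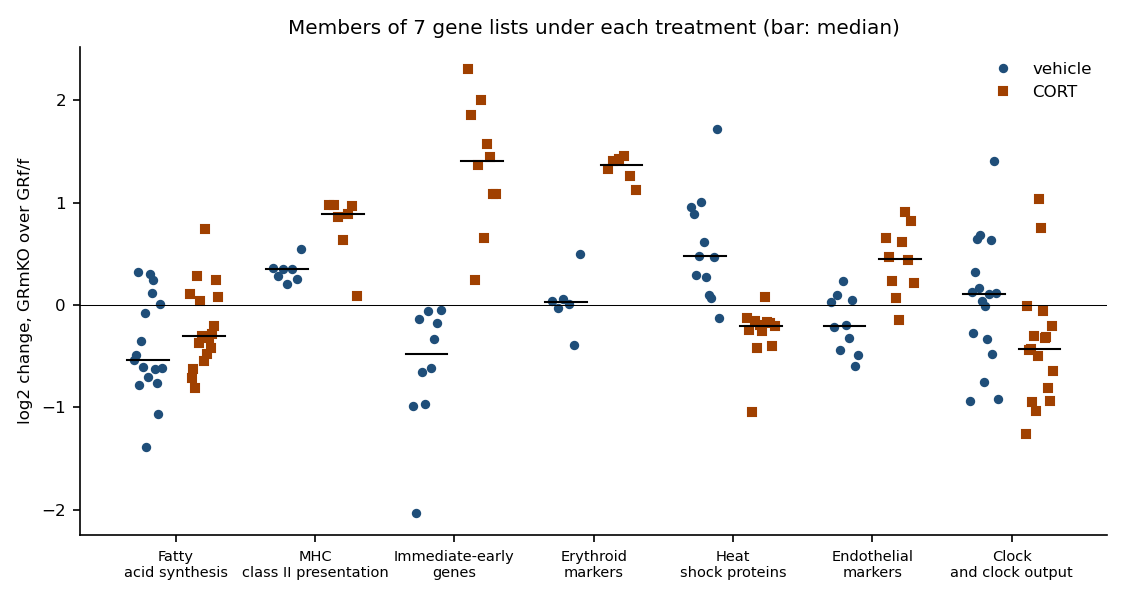
Log2 difference of GRmKO over GRf/f for each tested member of 7 gene lists, under vehicle (blue circles) and CORT (brown squares), with the median as a bar. The squares of the immediate-early and erythroid lists lie above 0 for all members and their circles at or below 0.50, while fatty acid synthesis has both medians below 0.

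Leptin and the GR target Fkbp5 also had opposite differences, with both GRmKO libraries between the GRf/f libraries, but the GR targets as a list shared no direction. Lep was at 722 CPM in GRf/f vehicle, 1289.6 in GRmKO vehicle, 5587 in GRf/f CORT and 3196 in GRmKO CORT, differences of 0.84 and -0.81. Fkbp5, the co-chaperone that GR induces, was at 141, 206, 427 and 264 CPM in the same order. Sfrp5, a secreted Wnt inhibitor that rises as fat expands, differed by 0.84 and -0.66, and Zbtb16 (PLZF), another GR target, by 1.04 and -0.43. Over the 16 GR targets the medians were 0.20 and -0.03. Of these, 7 were higher then lower, against 31.9% of all genes, and 4 the reverse, against 22.8%. Others went the opposite way, as Dusp1 was at 171 and 164 CPM and at 67.0 and 143 CPM, and Ddit4 at 63.7 and 50.6 CPM and at 4.52 and 12.6 CPM.

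Heat shock proteins showed the same crossing, with 10 of 12 higher under vehicle and lower under CORT, against 31.9% of all genes, and medians of 0.48 and -0.20. Hspa8, the constitutive HSC70, was at 570 and 1143 CPM and at 1551 and 1156 CPM, and the small heat shock protein Hspb7 at 18.0 and 60.4 CPM and at 999.9 and 758 CPM. In both genes GRmKO vehicle lay between GRf/f vehicle and the CORT libraries.

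Clock genes were mixed, 10 of 17 being higher then lower, against 31.9% of all genes. Nr1d1 (REV-ERB alpha), a repressor in the clock, was at 398 and 235 CPM and at 76.5 and 157 CPM, whereas Per2 differed by 0.64 and -0.95 and Nfil3 by 1.41 and -0.94. Against this, Arntl (BMAL1), the activator of the clock, was lower in both, at 2.25 and 0.939 CPM and at 22.5 and 9.11 CPM, and so was the repressor Bhlhe41 (DEC2), at 50.8 and 26.6 CPM and at 18.6 and 11.7 CPM. The hour at which each pool was collected is not given in the sources used here, and its part in these values was not tested.

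The genes with the largest opposite differences were for the most part low. Fosb was at 7.01 CPM in GRf/f vehicle, 1.34 in GRmKO vehicle, 6.59 in GRf/f CORT and 25.1 in GRmKO CORT. Nptxr, a neuronal pentraxin receptor, was at 2.54, 13.5, 14.0 and 2.67 CPM, and Tlr1, a Toll-like receptor, at 0.303, 2.63, 3.27 and 0.371 CPM. Acsbg1, an acyl-CoA synthetase, was at 3.11, 0.354, 0.402 and 5.15 CPM, and Sertad4 at 3.31, 0.371, 0.378 and 2.35 CPM. In these last 4 genes GRmKO vehicle resembled GRf/f CORT and GRf/f vehicle resembled GRmKO CORT.

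Large differences also appeared under 1 treatment with little change (below 0.5) under the other. Tnfaip3 (A20), an inhibitor of NF-kappaB signalling, was at 1.18 CPM in GRf/f vehicle against 22.6, 13.2 and 12.8 CPM in the other 3 libraries. Mllt6 was at 6.62 CPM in GRmKO vehicle against 44.9, 28.7 and 21.6 CPM. Under CORT, Tcf7l2 (TCF4), a transcription factor of Wnt signalling, was at 2.24 CPM in GRf/f CORT against 24.2, 24.9 and 17.6 CPM, and Rasgrp2 was at 1.84 CPM in GRmKO CORT against 27.3, 22.3 and 16.8 CPM. In each of these, 1 library stood apart from the other 3. Rasgrp2 has 13 annotated protein-coding transcripts, Tcf7l2 12, Tnfaip3 4 and Mllt6 2, while each entry carries a single transcript identifier.

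The share of genes past 2-fold differed with the number of annotated protein-coding transcripts. It was 18.3% under vehicle and 11.7% under CORT among the 60 genes with 0 such transcripts, which include immunoglobulin segments and have a low median level. Among genes with at least 1, it was 1.33% under vehicle and 1.80% under CORT among the 4221 genes with 1 transcript, 2.01% and 2.61% among 5869 genes with 2 to 3, and 3.22% and 3.34% among 4068 genes with 4 or more, although median expression was highest in the last of these classes. Among genes with 1 transcript, 4 recurred as higher (9030025P20Rik, Krt14, Gm44973 and Mup20), 2 recurred as lower (Bcl6 and Gemin4) and 3 went opposite ways. The excess of opposite over recurring genes past 2-fold was thus not seen in these few. Over all 4221 of them the 2 changes were still weakly and inversely related, with a Spearman rank correlation of -0.12 and the same sign for 44.8%.

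Other metabolic lists had medians within 0.25 of 0, apart from the thermogenic genes and the fat expansion genes, the latter with medians of 0.29 and -0.09. Lipolysis had medians of 0.12 and 0.04, with Pnpla2, the first triglyceride lipase, at 2803 and 3315 CPM and at 2299.6 and 2957 CPM. Fatty acid oxidation had medians of -0.08 and -0.05, with 8 of 12 lower in both, against 22.6% of all genes. Pdk4, which spares glucose in fasting, was an exception at 35.1 and 53.2 CPM and at 64.8 and 92.5 CPM. Triglyceride assembly had medians of 0.13 and -0.03, insulin signalling 0.20 and -0.09, adipogenic transcription factors 0.12 and 0.22 and adipokines 0.13 and 0.18. Adipoq, adiponectin, was at 3792 and 4341 CPM and at 2016 and 2648 CPM. The 7 tested thermogenic genes had medians of -0.61 and 0.23, with Ucp1 listed at 0 in 3 of the 4 libraries. Each of these lists had 0 or 1 members past 2-fold in either direction of either comparison.

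The 19 recurring genes of WAT were set beside the other tissues. Of the 19, 9 were above 0 in all 4 gastrocnemius libraries, of which 3 had the WAT sign under both treatments and 1, Mup20, was past 2-fold in both. The hepatocyte markers Alb, Ttr and Serpina1a were also higher in GRmKO gastrocnemius, by 3.62 and 4.64, 2.51 and 3.90, and 2.20 and 3.95. The part of liver-type RNA in the Mup20 values of gastrocnemius was not tested. In liver 6 of the 19 were above 0 in all 4 libraries, 2 had the WAT sign under both treatments and 0 were past 2-fold in both. Over all genes with the same sign under both treatments in WAT and above 0 in the tissue, the WAT sign was shared by 44.4% of 5698 in gastrocnemius and 30.5% of 5264 in liver, so nothing particular to the recurring genes is read from these few. Bcl6 differed by 0.40 and -0.94 in gastrocnemius and by 0.17 and -1.81 in liver, so its WAT direction was shared under CORT and not under vehicle. Fasn differed by -0.02 and -0.44 in gastrocnemius and by 1.56 and -0.32 in liver. Over the 11124 genes above 0 in all 12 libraries, 1 gene, 4930562C15Rik, differed by at least 0.5 in the same direction in all 6 comparisons. In WAT it was at 4.50 and 2.90 CPM and at 4.42 and 2.62 CPM, and in gastrocnemius it differed by -1.29 and -1.44. Arntl, listed at 0 in at least 1 liver library, was lower in all 6 as well, by -0.71 and -1.44 in gastrocnemius and -1.10 and -1.93 in liver.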

How the data were processed

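RNA of gonadal WAT was sequenced as 1 pooled library per group. Per the labels and the study's methods, the authors quantified reads with Salmon 1.2.1 against GENCODE mouse transcripts (mm10) and imported them in R 3.5.0 with tximport. The deposited values are expected counts scaled by transcript length and abundance, with 1 row per gene symbol carrying 1 transcript identifier. The methods name tximport's summary to genes, then a conversion of transcript identifiers to gene names in which, for a repeated name, the entry with the largest total was kept. The rows carry transcript identifiers, so whether a value sums all transcripts of its gene was not settled here, which matters for genes with several isoforms. Each row was matched to GENCODE M21 (GRCm38), and all 22252 matched.

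CPM were computed from each library's total (19752511 to 20198110 counts, where 3 counts are 0.149 to 0.152 CPM). Genes above 0 in all 4 libraries were compared, a pseudocount of 0.5 CPM was added, and a gene was called at 2-fold. With 1 library per group no test of a single comparison is possible. Exact Clopper-Pearson 95% intervals of the ratios cover counting error only. Counts, rounded to whole numbers, were also fitted with edgeR 4.0.16 (quasi-likelihood, genotype plus treatment, Benjamini-Hochberg) in R 4.3.3, with DESeq2 1.42.0 as an alternative. This fit takes the residual of an additive model as the spread, so a genotype effect that differs between treatments enters the error. Code was tested on simulated data.

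Genes named are, among genes with a mean of at least 1 CPM, the 12 highest and 12 lowest in both comparisons by the smaller absolute log2 difference, 4 in each opposite direction, 4 in each direction under 1 treatment, 9 fixed genes, and up to 4 members of each of 35 lists, plus others stated as chosen afterwards and members shown as examples of their list. The genes, lists and comparisons were chosen with earlier results of these data known. Promoter windows are the 250 bases before each RefSeq start. Alternatives were other pseudocounts (0.1 and 2 CPM), folds (1.5 and 3), scalings and filters.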

Additional observations from a re-analysis of the deposited data

Results flagged for a closer look

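Differences that pointed opposite ways under the 2 treatments were listed for the 8 named genes with the largest ones, as CORT minus vehicle log2 difference. This change was -4.40 for Nptxr, -4.07 for Tlr1, -4.54 for Gm16867 and -3.54 for Mrgprg, which were higher in GRmKO under vehicle and lower under CORT. It was 7.11 for Ighg2b, 4.73 for Acsbg1, 3.88 for Fosb and 3.83 for Sertad4, which were lower and then higher. With 1 library per group the difference between treatments was not tested. Ighg2b went from 17.1 CPM in GRf/f vehicle to 0.700 in GRmKO vehicle and from 0.201 in GRf/f CORT to 6.09 in GRmKO CORT.

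Entries outside the compared genes also held counts. Among the 8034 entries at 0 in at least 1 WAT library, 336 had a mean of at least 1 CPM, and 35 of those were past 2-fold the same way under both treatments. A 0 in a library together with such a mean favours passing 2-fold. The 35 are therefore not comparable with the recurring tested genes (0.0633% higher and 0.0703% lower). Of the 336, 16 were listed at 0 in both libraries of 1 genotype while above 3 counts in both of the other. These 16 differ the same way under both treatments because of how they were picked. Those with a mean of at least 5 CPM in the genotype where they were detected were Rexo4 (24.2 CPM), Mbtd1 (14.9 CPM), Trp53bp1 (14.0 CPM), Galnt6 (6.11 CPM), Scn3b (5.81 CPM), Lhx6 (5.74 CPM) and Madd (5.36 CPM). A comparable entry in a single library is Itgam (CD11b), a macrophage gene, which was listed at 0 in GRf/f vehicle and at 22.5, 64.7 and 42.7 CPM in GRmKO vehicle, GRf/f CORT and GRmKO CORT, while Adgre1, Cd68 and Csf1r differed by 0.48, 0.19 and 0.22 under vehicle.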

How the results depend on the processing

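Of the 19 recurring genes 15 had a mean of 1 to 10 CPM, 3 a higher and 1 a lower one. For vehicle, CORT, recurring and opposite genes in turn, against 316, 372, 19 and 33 as reported, a pseudocount of 0.1 CPM gave 715, 815, 67 and 97, a pseudocount of 2 CPM gave 141, 140, 5 and 11, no filter on zeros gave 708, 767, 76 and 107, a 1.5-fold threshold gave 1375, 1510, 135 and 211, a 3-fold threshold gave 85, 64, 1 and 8, intervals wholly beyond 2-fold gave 158, 171, 7 and 16, and genes with 1 protein-coding transcript gave 56, 76, 6 and 3. The opposite genes outnumbered the recurring ones in each of these but the last, which was chosen after seeing the data. TMM factors, median-of-ratios factors and a minimum mean of 1 CPM kept all 4 counts within 1.5 times. The additive fit called 0 genes as reported, 7 with TMM factors, 5 with median-of-ratios factors, 5 with DESeq2 and 4 among genes with 1 protein-coding transcript, and the cause was not tested. The number of lists that agreed in direction was 4, and 3 to 6 under the alternatives, fatty acid synthesis, MHC class II and mesothelial markers being among them each time. No gene difference past 2-fold changed sign under another scaling or pseudocount, and neither did a list median of at least 0.25 in size. Medians of at most 0.0273 in size did, with TMM factors for adipocyte and erythroid markers under vehicle and, with either factors, for GR targets, FGF21 reception and the unfolded protein list under CORT, the last also with a pseudocount of 2 CPM. Leaving out a library leaves the additive model with no residual degrees of freedom and a comparison with no partner, so it was not run. No paired analysis was possible because each group is 1 library and the labels give no replicate numbers. Counts of a few per library set the limit, since 3 counts are about 0.15 CPM.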
